A study of Chlorocebus sabaeus with 4 samples.

Results

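The genes described here encode the mitochondrial ribosome and the machinery that brings proteins into mitochondria, measured in the corpus luteum of vervet monkeys (Chlorocebus sabaeus). They were chosen by symbol in the array's annotation, as MRPL and MRPS genes with a plain subunit number (75 genes, called ribosome genes below) and as TIMM and TOMM genes (22 genes, called import genes). These are 97 of the 19775 genes that had a probe set of their own. The 4 arrays came from 2 adult females of 16 years, with 2 samples from each: monkey 1031, on calorie restriction, and monkey 1030, fed ad libitum. Every animal was its own control for weight change, and the labels number its samples 1 and 2 without saying what separated them. Each diet was thus 1 animal, and the samples of an animal are not replicates of a condition.

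As background, mitochondria carry a small genome of their own, and the respiratory chain subunits that it encodes are made on ribosomes inside the organelle. The RNA of these ribosomes is mitochondrial, while their proteins are made from nuclear genes in the cytosol and imported: MRPL proteins mostly sit in the large subunit and MRPS proteins mostly in the small one. Import passes first through the TOM complex of the outer membrane and then through TIM23, for proteins with a cleavable presequence, or TIM22, for carriers of the inner membrane, with small TIM chaperones guiding hydrophobic cargo between the membranes. In the corpus luteum, the gland left by the ovulated follicle, mitochondria also begin progesterone synthesis, where the side-chain cleavage enzyme CYP11A1 converts cholesterol delivered with the help of STAR.

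Values are log2 signals of 1 probe set per gene, the one with the highest mean over the 4 samples, so 1 unit is a 2-fold difference in signal. A change is the log2 value of sample 2 minus that of sample 1. Each change rests on 1 array a side, with no replicate and no test, and a gene is called higher or lower at 2-fold or more, a rule of size. Genes under a mean of 5.26, the median over all genes, were left out of backgrounds and fits, which left 9888 genes, including 69 of the ribosome and 19 of the import genes. The probes were designed on human genes, and signals of different genes are not compared as RNA levels. In a tissue sample, fewer cells of a type and less RNA per cell cannot be told apart.

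Sample 2 of the ad libitum animal was unlike the other samples: 912 to 1031 genes were 2-fold away from each of them, against 122 to 333 among the other 3. Luteal steroid-making cells were followed by 11 markers, 10 of them past the level filter. Their mean log2 signal was 9.30 in sample 2 and 8.63 in sample 1 of the calorie restriction animal, and 7.52 in sample 2 and 10.09 in sample 1 of the ad libitum animal. The 18 probe sets for control RNAs of the hybridisation averaged 10.54 in sample 2 and 10.09 in sample 1 of the calorie restriction animal, and 9.85 in sample 2 and 10.58 in sample 1 of the ad libitum animal. Both measures were thus higher in sample 2 in the calorie restriction animal and lower in sample 2 in the ad libitum animal, as were most of the genes described below, and their part in the results was not tested.

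**Figure D1:**
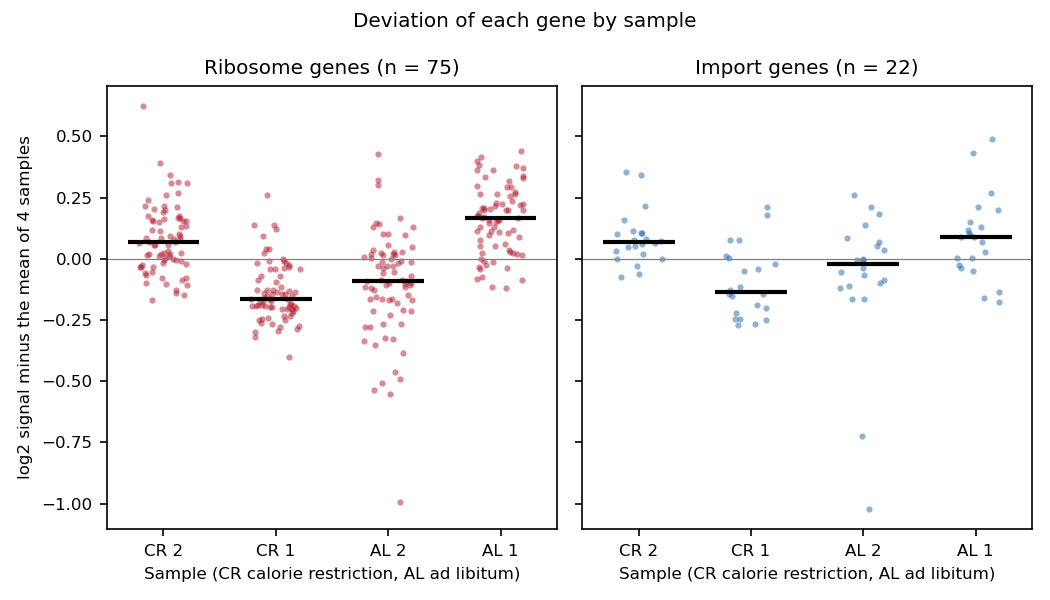
Each point is 1 gene's log2 signal minus its own mean over the 4 samples (vertical axis), for ribosome genes on the left and import genes on the right, with samples along the horizontal axis (CR, calorie restriction, AL, ad libitum; the digit is the sample number) and a bar at the median. The ribosome medians are 0.068 in CR 2, -0.16 in CR 1, -0.090 in AL 2 and 0.17 in AL 1, and 2 import genes lie far below the rest in AL 2.

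Across samples, the ribosome genes were relatively high in the calorie restriction animal's sample 2 and the ad libitum animal's sample 1, and low in the other pair. In 45 of 75 ribosome genes both of these samples were above both of the others, and so they were in 9 of 22 import genes, against 19.5% of the 9888 genes. The calorie restriction animal's sample 1 was the lowest of the 4 for 42 ribosome and 12 import genes (18.2% of all genes), and the ad libitum animal's sample 2 was the lowest for 26 and 6 (36.4% of all genes). The calorie restriction animal's sample 2 was the lowest for 4 and 0 (25.3% of all genes), and the ad libitum animal's sample 1 for 3 and 4 (20.1%). Differences were small: the median gene's highest sample was 0.39 above its lowest, with a range over the 97 genes of 0.047 to 1.62.

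In the calorie restriction animal, ribosome genes were slightly higher in sample 2 as a list. The change was above 0 in 65 of 75 (86.7%), against 45.6% of all genes, and its median was 0.23, or 1.17-fold, against -0.026 over all genes. None reached 2-fold, where 0.496% of all genes were higher and 0.738% lower. At 1.5-fold, 1 ribosome gene was higher, against 2.01% of all genes, and 0 were lower, against 3.93%, so the list stood out in direction and not in size.

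The gene past 1.5-fold was MRPL14, a core protein of the large subunit. Its log2 signal was 10.13 in sample 2 and 9.50 in sample 1, a change of 0.62. MRPS22, a small subunit protein in which human mutations cause respiratory chain disease, came next, with 8.48 in sample 2 and 7.96 in sample 1. MRPL41, MRPS25, MRPS16 and MRPL17 followed with changes of 0.51, 0.51, 0.51 and 0.51. MRPS16, a small subunit protein that also has human disease mutations, had 8.77 in sample 2 and 8.26 in sample 1.

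The 10 ribosome genes with a change below 0 (54.3% of all genes) lay close to it. MRPL19 was the lowest at -0.28, with 4.00 in sample 2 and 4.28 in sample 1, and MRPL45, an inner membrane anchor of the ribosome, was at -0.17. MRPL44, which resembles an RNase III, MRPS2, MRPS5 and MRPL55 lay between -0.083 and -0.048. MRPL19, MRPL44 and MRPS2 were under the level filter. Grouped by symbol alone, the 2 kinds had much the same median in this animal, 0.20 over 48 MRPL genes and 0.25 over 27 MRPS genes.

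Import genes had a similar tendency in the calorie restriction animal. The change was above 0 in 19 of 22, against 45.6% of all genes, with a median of 0.19, or 1.14-fold. None reached 1.5-fold, where 2.01% of all genes were higher and 3.93% lower. Averaging every probe set per gene gave a median of 0.11, and leaving out those of less specific design gave 0.098. TOMM40, the channel of the outer membrane, had the largest change, 0.46, with 7.54 in sample 2 and 7.08 in sample 1. The presequence receptors TOMM22 and TOMM20 were at 0.31 and 0.26, the carrier receptor TOMM70 at 0.22 and the small subunit TOMM5 at 0.22. Second probe sets past the level filter gave -0.45 for TOMM22, -0.11 for TOMM70 and 0.10 for TOMM5. The direction of TOMM22 and TOMM70 thus depends on the probe set. TOMM34, a cytosolic co-chaperone, was at -0.017, and TOMM40L, a close relative of the channel protein, at 0.17.

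Of the inner membrane genes in the same animal, TIMM17A, of the TIM23 channel, was at 0.39, with 9.93 in sample 2 and 9.54 in sample 1, whereas its paralog TIMM17B was at 0.083. The presequence receptor TIMM50 was at 0.18, and TIMM44, which tethers the import motor, at 0.096. TIMM21, which connects TIM23 to the outer membrane and the respiratory chain, was at 0.095. The TIM22 genes TIMM22 and TIMM29 were at 0.068 and 0.094. Among the small TIM genes, TIMM8B (0.38), TIMM13 (0.35), TIMM10 (0.33), TIMM8A (0.22) and TIMM9 (0.20) were above 0, and TIMM10B was at -0.19. Second probe sets past the level filter gave -0.026 for TIMM44 and -0.017 for TIMM8B, but 0.42 for TIMM10 and 0.50 for TIMM17A.

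**Figure D2:**
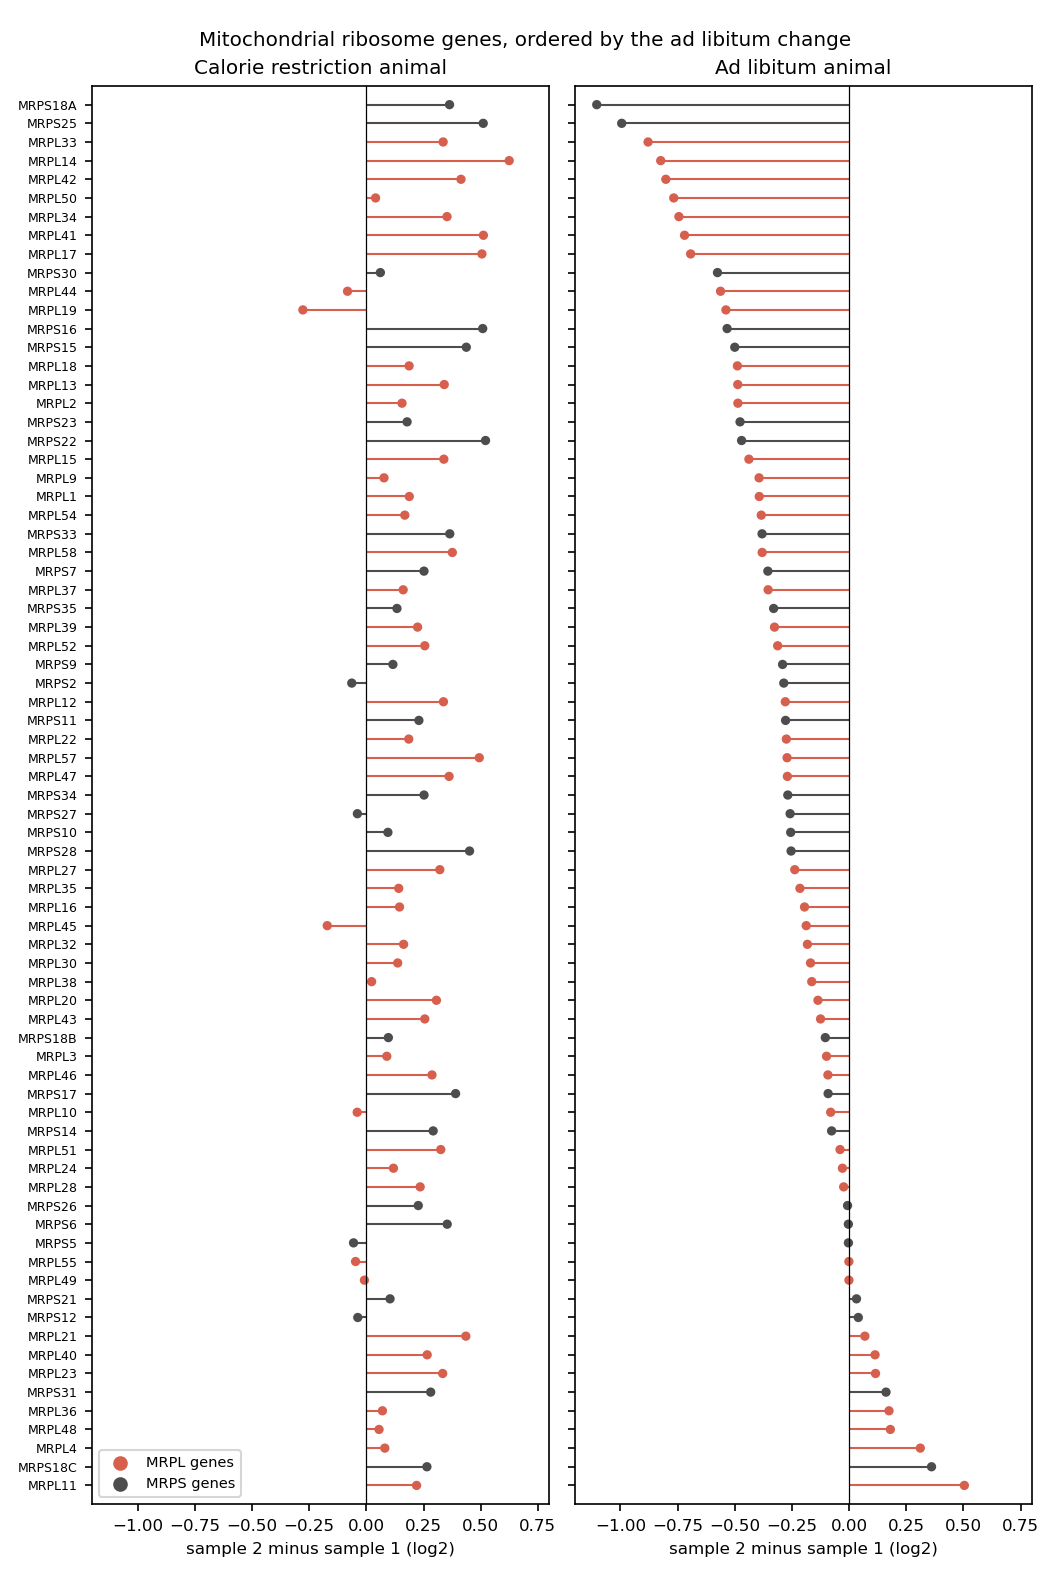
Change of each of the 75 ribosome genes (log2, sample 2 minus sample 1) in the calorie restriction animal, left, and in the ad libitum animal, right, as lines from 0, with genes down the page in the order of the ad libitum change and MRPL and MRPS genes in different colours. In the left panel 65 of 75 points lie above 0, and in the right panel 64 of 75 lie below 0, reaching -1.10 for MRPS18A.

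In the ad libitum animal the ribosome genes lay the other way. The change was below 0 in 64 of 75 (85.3%), against 51.4% of all genes, with a median of -0.27, or 1.20-fold, against -0.013 over all genes. By size they did not exceed the background: 1 of 75 was 2-fold lower, where 6.58% of all genes were, and 9 of 75 were 1.5-fold lower, where 15.2% were. None was 1.5-fold or 2-fold higher, against 9.54% and 2.67% of all genes. MRPL and MRPS genes had medians of -0.25 and -0.27. Over the 4944 genes past the 75th percentile of level, the median was -0.031 in the calorie restriction animal and -0.076 in the ad libitum animal, where 56.3% of them were below 0. The part of signal level in the ribosome values was not tested.

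The gene 2-fold lower was MRPS18A, one of the relatives of the bacterial S18 protein. Its log2 signal was 7.67 in sample 2 and 8.78 in sample 1 of the ad libitum animal, 2.15-fold lower (-1.10). Its second probe set past the level filter gave 0.47, so its direction depends on the probe set. Its relative MRPS18C was at 0.36.

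MRPS25, a small subunit protein, came close to 2-fold, with 7.83 in sample 2 and 8.82 in sample 1 (-0.99). The mean of its 3 probe sets gave -0.29, and 1 of the other probe sets, under the level filter, gave 0.29. MRPL33 had 10.31 in sample 2 and 11.18 in sample 1 (-0.88), MRPL14 had 9.25 and 10.07 (-0.82), and MRPL42 had 8.30 and 9.10 (-0.80). MRPL50, MRPL41 and MRPL17 were at -0.77, -0.72 and -0.69. Of the 9 genes 1.5-fold lower, 7 were among the 48 MRPL genes and 2 among the 27 MRPS genes, against 15.2% of all genes.

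The 11 ribosome genes above 0 (48.5% of all genes) were led by MRPL11, of the stalk base where translation factors bind. It had 7.80 in sample 2 and 7.29 in sample 1 of the ad libitum animal (0.50). MRPS18C (0.36) and MRPL4 (0.31) came next, and MRPL48, MRPL36 and MRPS31 were at 0.18, 0.17 and 0.16. MRPL36 had the dimmest probe set of the list, with a mean of 2.80, and MRPL33 the brightest, with 10.77. MRPL51 and MRPS14, also bright at 10.34 and 10.17, were at -0.039 and -0.076.

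Import genes in the ad libitum animal were divided. The change was below 0 in 13 of 22 (59.1%), against 51.4% of all genes, and its median was -0.027. TOMM40L and TIMM17A were the 2 of 22 genes 1.5-fold lower, where 15.2% of all genes were, and both were also 2-fold lower, where 6.58% were. TOMM40L had 5.999 in sample 2 and 7.51 in sample 1, 2.85-fold lower (-1.51), with a single probe set. TIMM17A had 8.86 in sample 2 and 10.02 in sample 1, 2.23-fold lower (-1.16), and its second probe set past the level filter gave -1.08. The mean of all 4 of its probe sets, 2 of them under the level filter, gave -0.55. In both genes sample 2 of the ad libitum animal was the lowest of the 4 samples, and the highest was sample 1 of the same animal.

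On the probe sets used, the remaining import genes stayed between -0.37 and 0.26 in the ad libitum animal. TOMM40 itself was at -0.033, with 7.32 in sample 2 and 7.35 in sample 1, and TIMM17B at 0.070, with 7.55 and 7.48. Thus in both cases the paralog that was 2-fold lower stood beside a relative that hardly differed. TIMM50 (-0.37), TIMM10 (-0.36) and TOMM70 (-0.32) were the lowest of the rest, followed by TIMM8B (-0.24), TIMM21 (-0.21), TOMM5 (-0.14) and TIMM44 (-0.083). Their second probe sets past the level filter gave -0.47 for TIMM10, -0.37 for TOMM5 and -0.085 for TIMM8B. TOMM70 was at -0.018 and TIMM44 at 0.027 on theirs. The order of these genes, and the direction of TIMM44, thus depend on the probe set. TOMM20 was the highest at 0.26, with 9.37 in sample 2 and 9.11 in sample 1.

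Small TIM genes were balanced, with 3 above 0 and 3 below in the ad libitum animal. TIMM13 was at 0.22, TIMM10B at 0.12 and TIMM9 at 0.084, and TIMM8A, mutated in human deafness-dystonia syndrome, at -0.022. TOMM34 (0.14), TOMM22 (0.082), TIMM22 (0.021) and TIMM29 (-0.014) also lay close to 0, though the second TOMM22 probe set past the level filter gave -0.31. TIMM23, the channel subunit itself, and its copy TIMM23B had only dim probe sets of their own, at means of 2.63 and 3.26, and were at 0.21 and -0.25. Brighter probe sets that both genes share, left out of the counts above, gave -0.64, -0.38 and -0.41. The direction and size of TIMM23 thus depend on the probe set.

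**Figure D3:**
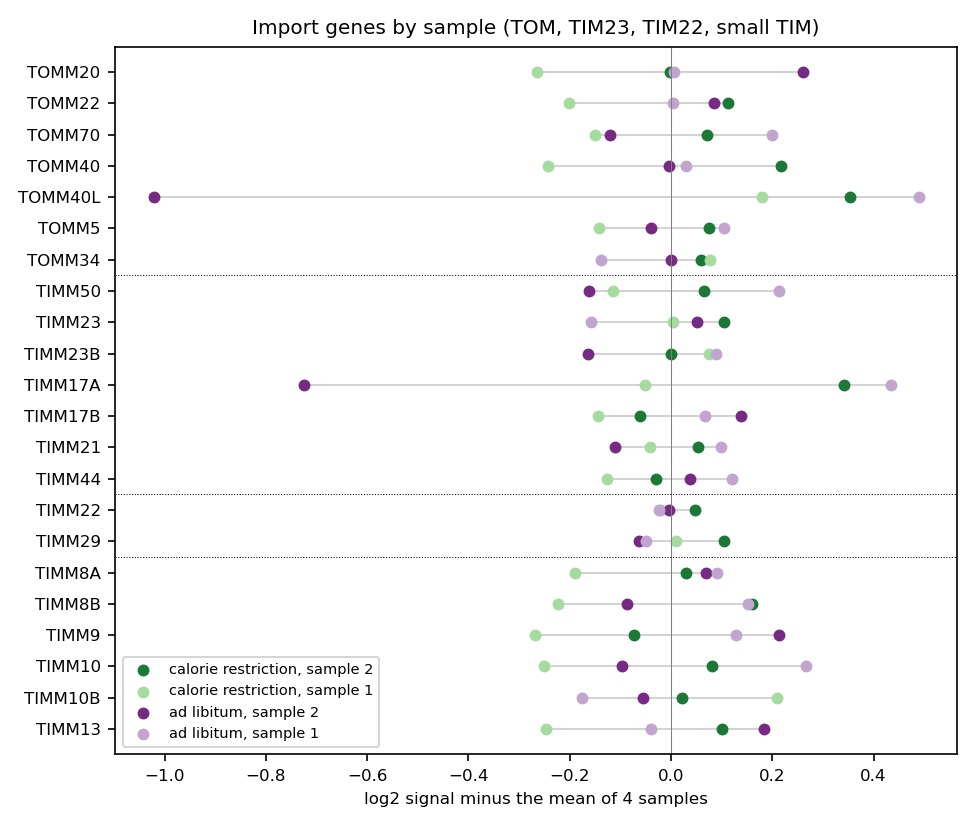
Log2 signal of each of the 22 import genes minus its mean over the 4 samples (horizontal axis), with 1 point per sample and genes grouped by complex from top to bottom (TOM, TIM23, TIM22, small TIM). TOMM40L and TIMM17A have their ad libitum sample 2 at -1.02 and -0.73, and no other import gene lies further than 0.27 from its mean in any sample.

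Set side by side, ribosome and import genes had close medians in the calorie restriction animal, 0.23 and 0.19, a difference of 0.039. In the ad libitum animal the ribosome median was lower by 0.24, and 5 of 22 import genes lay below it. That difference was -0.16 with probe sets averaged per gene, and -0.16 under cyclic loess. No test was made of this difference, since genes share the arrays and are not replicates. Within both lists brighter probe sets had larger changes in the calorie restriction animal, with a Pearson r of 0.56 between mean signal and change over the 75 ribosome genes and of 0.53 over the 22 import genes. In the ad libitum animal r was -0.24 and -0.28. These correlations are across genes on the same arrays and are given as a description.

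**Figure D4:**
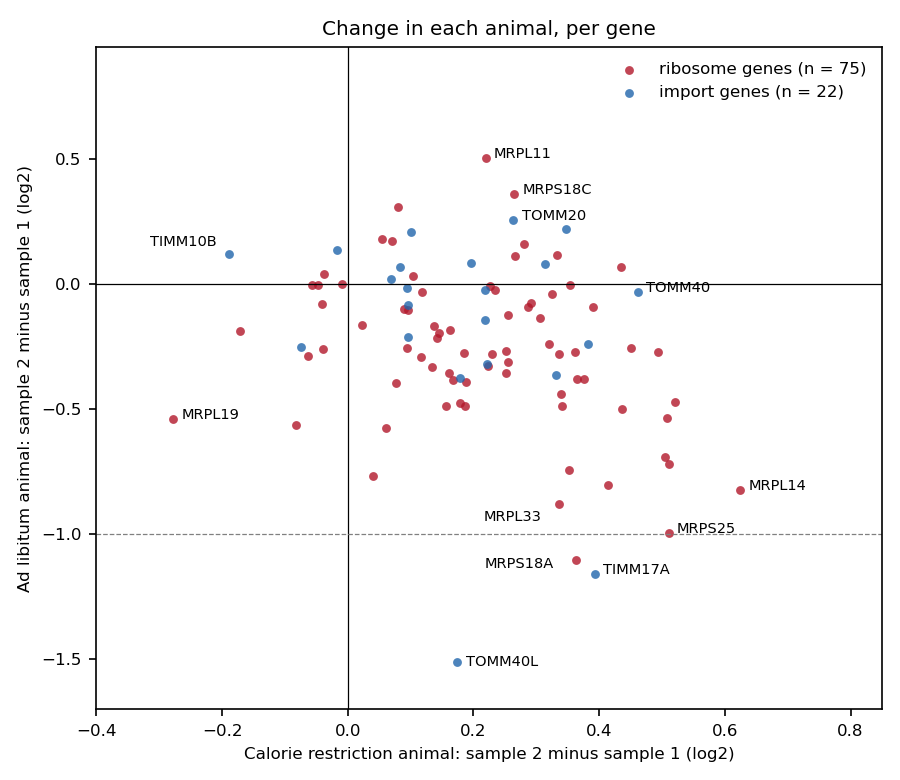
Each point is 1 gene, with its change in the calorie restriction animal on the horizontal axis and in the ad libitum animal on the vertical axis (both log2, sample 2 minus sample 1), and the dashed line marks a 2-fold lower signal. Ribosome genes gather in the lower right, 55 of 75, and import genes lie on both sides of the horizontal line with TOMM40L and TIMM17A well below it.

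The series title names weight gain and loss, so the signs in both animals were compared. A change above 0 in the calorie restriction animal together with one below 0 in the ad libitum animal was found in 55 of 75 ribosome genes (73.3%) and 12 of 22 import genes, against 27.3% of all genes. The opposite pair of signs was found in MRPS12, TIMM10B and TOMM34 (30.2% of all genes), with MRPS12, a protein of the decoding site, at -0.038 and 0.040. MRPS12 was just under the level filter, and no ribosome gene past it had this pair. Its other probe sets, dimmer still, were all below 0 in the ad libitum animal. If the sample numbers ran against time in 1 animal, opposed and shared changes would trade places. At 1.5-fold in both animals, 1 gene had the first pair, against 1.18% of all genes: MRPL14, at 0.62 and -0.82. MRPL41 (0.51 and -0.72), MRPS25 (0.51 and -0.99) and MRPS16 (0.51 and -0.53) were next.

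Changes of the same sign were fewer. Both were above 0 in 10 ribosome and 7 import genes (18.3% of all genes), led by MRPS18C (0.26 and 0.36), MRPL11 (0.22 and 0.50), MRPS31 (0.28 and 0.16) and MRPL23 (0.33 and 0.12). TOMM20 (0.26 and 0.26) and TIMM13 (0.35 and 0.22) were the import genes with the largest such pairs. Both were below 0 in 9 ribosome genes and in TIMM23B (24.1% of all genes), led by MRPL19 (-0.28 and -0.54), MRPL45 (-0.17 and -0.19), MRPL44 (-0.083 and -0.56) and MRPS2 (-0.064 and -0.29).

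With both animals in a limma fit and the animal as a block, which leaves 1 residual degree of freedom, 0 genes had an adjusted p under 0.05 (Benjamini-Hochberg) for an opposed change and 0 for a common one. For the opposed change, 7 of 69 ribosome genes and 1 of 19 import genes, TIMM17A, were under an unadjusted p of 0.05, against 7.46% of all genes, and the lowest adjusted p was 0.656. For the common change there were 0 ribosome and 0 import genes at that level, against 1.82% of all genes. The limma fit therefore made no call on any of these genes, although most had the same pair of signs.

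Between the animals the lists hardly differed. The calorie restriction minus ad libitum difference of animal means had a median of -0.055 over ribosome genes, -0.057 over import genes and -0.010 over all genes. In 3 ribosome and 3 import genes both samples of the calorie restriction animal were above both of the other animal (16.6% of all genes), and in 14 and 5 they were below (18.7%). In limma 0 of 9888 genes passed an adjusted p of 0.05 (522, or 5.28%, at an unadjusted p of 0.05), and among the genes described here 0 were under the unadjusted level. With 1 animal per diet, such a p sets the difference against the spread within animals, and it says nothing of the spread among animals on a diet.

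MRPS18A had the largest difference. Its log2 signal in sample 2 and sample 1 was 9.29 and 8.93 for the calorie restriction animal, against 7.67 and 8.78 for the ad libitum animal. Its second probe set past the level filter had a difference of only 0.12, and there the samples of the animals overlapped. On the brightest probe set the means differed by 0.88 ± 0.42 (SE, limma adjusted p = 0.889), and the groups did not overlap. Without the ad libitum animal's sample 2 the difference was 0.33, and without its sample 1 it was 1.44, with an adjusted p of 0.0499. TOMM40L passed in that fit too, at 1.29 with an adjusted p of 0.0382, among 474 genes (4.79%), but was at -0.22 without the ad libitum animal's sample 2.

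MRPL55 (0.23) and MRPS27 (0.20), which binds mitochondrial RNA, were the other ribosome genes with both calorie restriction samples above. MRPL37 (-0.37), MRPL38 (-0.36), MRPL46 (-0.35) and MRPL9 (-0.33) led those with both below. MRPL38 had 6.44 and 6.41 in the calorie restriction animal's samples 2 and 1, against 6.71 and 6.87 in those of the ad libitum animal. Of the import genes, TIMM9, a small TIM chaperone, was below, with 5.61 and 5.41 against 5.89 and 5.81 (-0.34, adjusted p = 0.897), as were TOMM20 (-0.27), TIMM17B (-0.21), TIMM8A and TIMM44. TIMM10B (0.23), TOMM34 (0.14) and TIMM29 (0.11) were above, TIMM29 with a mean of 4.24, under the level filter. The second TIMM44 probe set past the level filter went the other way, with 6.10 and 6.12 against 6.04 and 6.02. Without the ad libitum animal's sample 2 the median difference was -0.20 for ribosome and -0.14 for import genes.

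**Figure D5:**
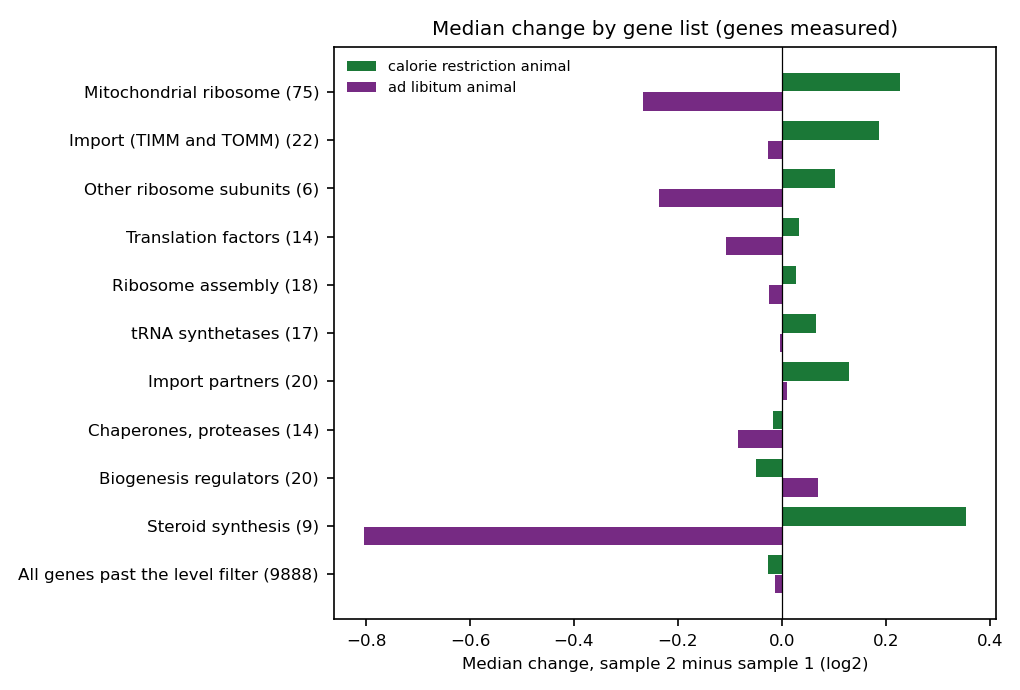
Median change (log2, sample 2 minus sample 1) of the ribosome, import and other mitochondrial gene lists in the calorie restriction animal and in the ad libitum animal, as bars from 0, with the number of genes measured in parentheses. The ribosome list, at 0.23 and -0.27, lies further from 0 in both animals than the lists of its assembly and translation factors. Steroid synthesis genes, at 0.35 and -0.80, lie furthest among the lists plotted, which leave out the cell type markers.

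Other genes of mitochondrial protein synthesis were counted in the same way. The 6 ribosome subunits and partners with other names had medians of 0.10 in the calorie restriction and -0.24 in the ad libitum animal, the second close to that of the MRPL and MRPS genes. Among them GADD45GIP1 was at 0.55 and -0.34, but at 0.14 in the calorie restriction animal with the mean of all its probe sets. CHCHD1 was at 0.42 and -0.44, while OXA1L, which inserts new proteins into the inner membrane, was at -0.042 and -0.46. The 14 translation factors had medians of 0.034 in the calorie restriction and -0.11 in the ad libitum animal, and none was 2-fold apart. Among them, TSFM, the exchange factor of elongation factor Tu, was at 0.17 and -0.56, and the release factor relatives MTRF1L and MTRF1 at -0.074 and 0.94 and at -0.60 and -0.13.

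The 18 assembly and ribosomal RNA modification factors had medians of 0.027 and -0.025, with MTG1, a GTPase of ribosome assembly, at 0.47 and -0.90. The 17 tRNA synthetases had medians of 0.065 and -0.0029, with GARS1 at 0.27 and -0.83. None of either list was 2-fold apart in either animal.

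Partners of import had a median of 0.13 in the calorie restriction animal, with 17 of 20 above 0, against 45.6% of all genes. In the ad libitum animal they went both ways, with 10 above 0 and 10 below (48.5% and 51.4% of all genes). The median was 0.0091 and the range -0.68 to 0.78. HSPA9, the motor chaperone that pulls proteins in through TIM23, was at 0.21 and -0.68. ROMO1 (0.62 and -0.34) had the same signs, while XPNPEP3 (0.055 and 0.78) and IMMP2L (0.12 and 0.66), both peptidases, were above 0 in both animals. Among 14 chaperones and proteases of the matrix and inner membrane, 1 was 2-fold lower in the ad libitum animal, where 6.58% of all genes were. It was LONP1, the matrix protease (-1.12, against 0.22 in the calorie restriction animal). The medians of this list were -0.018 and -0.084. Regulators of mitochondrial biogenesis had medians of -0.049 and 0.069 over 20 genes, with the transcription factor MYC at -0.75 and 0.38 and the nuclear respiratory factor NRF1 at -0.047 and 0.46.

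Of 9 steroid synthesis genes, 7 were above 0 in the calorie restriction animal and below 0 in the ad libitum animal, against 27.3% of all genes. In the calorie restriction animal 2 were 2-fold higher (0.496% of all genes) and the median was 0.35. In the ad libitum animal 4 were 2-fold lower (6.58% of all genes) and the median was -0.80. These 4 were STAR, CYP11A1, FDX1 and HSD3B2, and the 2 genes 2-fold higher in the calorie restriction animal were STAR and HSD3B2. All 4 are also among the 11 luteal markers given earlier, so these lists are not independent. CYP11A1 was at 0.77 and -2.19, and FDX1, the ferredoxin that supplies it with electrons, at 0.59 and -2.25. Endothelial markers had medians of -0.31 and -0.97 over 12 genes, and fibroblast markers of 0.21 and -0.27 over 6. Macrophage markers were at -0.16 and 0.35 over 11 genes, and theca and interstitial markers at -0.59 and 1.38 over 6. Oocyte markers were at -0.28 and 0.83 over 8 genes, of which only 3 were past the level filter. In the ad libitum animal 7 of the 8 were above 0, against 48.5% of all genes, with ZAR1 at 3.70 and ZP4 at 3.64. Smooth muscle and pericyte markers were at 0.41 and 0.36 over 10 genes. T and NK cell markers were at 0.036 and 0.086 over 7 genes, 3 of them past the level filter. Red blood cell markers were at 0.31 and -0.31 over 4, 2 of them past it. The part of other cell types in the ribosome and import values was not tested.

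The genes closest in pattern to the mean ribosome gene were chosen by the mean absolute difference of centred log2 values over the 4 samples. They were FSTL1, FGGY, MAIP1, COL1A2 and RABL6, at 0.0067 to 0.016 from it, all outside the ribosome and import lists. MAIP1, a mitochondrial matrix protein, had 8.22 in sample 2 and 7.97 in sample 1 of the calorie restriction animal, and 8.03 in sample 2 and 8.28 in sample 1 of the ad libitum animal. Those closest to the mean import gene were TSPAN31, TRIM16L, DPM1, CETN3 and PANX2, at 0.0094 to 0.012.

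Probe sets of one gene did not always go together. A second probe set past the level filter existed for 11 ribosome genes, and it had the direction of the brightest in 6 in the calorie restriction animal and 8 in the ad libitum animal. For the 7 import genes with one, these counts were 3 and 5. The brightest probe set was of a less specific design (marked s or x, for probes shared between transcripts or sequences) for 47 ribosome and 14 import genes. With those left out, the ribosome median was 0.12 over 44 genes in the calorie restriction animal and -0.26 in the ad libitum animal, and TIMM17A was at -0.043 in the ad libitum animal on a probe set under the level filter.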

How the data were processed

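The authors deposited 1 log2 signal for each probe set and sample. The submitters' processing notes name RMA and Affymetrix Power Tools, with no version or setting. Each sample was 1 array, with a median log2 signal over all 54675 probe sets of 3.96 to 4.00, and the number of arrays limits the precision.

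Probe sets with 1 symbol in the platform annotation were used. The genes were matched by symbol pattern, and 94 of 97 symbols are in the RefSeq annotation of assembly mChlSab1.0.hap1. Genes and lists were chosen with earlier results of these data known. Named ribosome genes were the 6 largest changes each way in each animal, the 4 largest joint changes for each pair of signs, the 4 largest differences each way between animals that did not overlap and the 3 brightest and dimmest, and every import gene was named. Of other lists, up to 4 genes each were named, and these were not always the ones with the largest changes.

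The fits used limma 3.58.1 in R 4.3.3 (lmFit, then eBayes with its trend option, two-sided, Benjamini-Hochberg adjustment over 9888 genes) and were tested on simulated data. Sample numbers are shared by both animals, and the deviations of same-numbered samples had a Pearson r of -0.27 across genes, so the numbers were not taken to pair the samples. Alternatives were cyclic loess, the mean of all probe sets, other filters and thresholds, no trend, blocks and leaving out samples.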

Additional observations from a re-analysis of the deposited data

Results flagged for a closer look

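MRPL14 was picked out because its changes in the animals ran in opposite directions and both passed 1.5-fold, at 0.62 in the calorie restriction animal and -0.82 in the ad libitum animal. Each change is 1 array against 1 array. In the limma fit, the opposed change (the calorie restriction change minus the ad libitum change, halved) was 0.72, with an adjusted p of 0.656. The gene has a single probe set on the array, of the less specific design, and so no value with such probe sets left out.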

How the results depend on the processing

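In both animals the ribosome medians kept their direction under cyclic loess, the mean of all probe sets, only genes past the level filter, centring on the median of all genes and leaving out less specific probe sets, at 0.12 to 0.25 in the calorie restriction animal and -0.27 to -0.22 in the ad libitum animal. The largest move came from leaving out less specific probe sets, which left 44 ribosome and 18 import genes. The calorie restriction median of ribosome genes was then 0.12. In that animal 29 of 44 ribosome and 11 of 18 import genes were above 0, against 65 of 75 and 19 of 22 as reported. In the ad libitum animal 33 of 44 ribosome genes were below 0, against 64 of 75. Both signs were found in 21 of 44 ribosome and 7 of 18 import genes, against 55 of 75 and 12 of 22. Fewer genes measured account for only part of these lower counts, since each share was lower as well. No share over all genes was computed under that setting, so these counts have no background to be set against. MRPS18A came to 0.47 in the ad libitum animal under that setting. Genes 2-fold apart in the ad libitum animal were 3 as reported, 1 with the mean of all probe sets, 1 without less specific ones and 11 at 1.5-fold; in the calorie restriction animal they were 0, and 1 at 1.5-fold. Leaving out 1 sample gave 0 to 474 calls over all genes and 0 to 2 among these genes for the difference between animals, the upper ends without the ad libitum animal's sample 1, where the lone sample is assumed to vary like the others. The median difference then ran from -0.20 to 0.032 for ribosome and -0.18 to 0.051 for import genes, and TOMM40L, at 0.53 with all samples, came to -0.22 without the ad libitum animal's sample 2 and 1.29 without its sample 1. With sample number as a replicate block there were 0 calls (506 genes at an unadjusted p of 0.05), and with crossed numbers, added after seeing the data, 0 calls. No other fit made a call. Arrays without detection values limit what can be said of the 9 genes under the level filter.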

Other observations

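Several probe sets carry the symbols of a ribosome or import gene and of another gene, and were left out above. The 3 shared by TIMM23 and TIMM23B had changes of 0.34, 0.30 and 0.30 in the calorie restriction animal and of -0.64, -0.38 and -0.41 in the ad libitum animal. The brightest of them had log2 signals of 8.999 in sample 2 and 8.66 in sample 1 of the calorie restriction animal, and of 8.44 in sample 2 and 9.08 in sample 1 of the ad libitum animal. The probe set of TOMM7, shared with C4orf46, had 10.25 and 9.87, and 10.64 and 10.33, in the same order, so it was higher in sample 2 of both animals. The probe set of MRPS24, shared with its read-through transcript, was at 0.31 and 0.50, and that of MRPL53, shared with CCDC142, at 0.36 and 0.16. Both probe sets of TOMM6, shared with PRICKLE4, were between 0.030 and 0.20 in either animal.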
